A study of Gossypium hirsutum with 120 samples.

Results

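Aquaporins are the subject here, in nectaries of upland cotton and in the tissue beside them. Every row of the deposited protein table whose description contains the word aquaporin was taken, which gave 67 of 49663 rows. The rows are predicted cotton proteins, and they were divided by the subfamily that the description names. There were 20 PIP2 rows, 6 PIP1 rows, 8 rows described as PIP-type 7a, 11 TIP, 11 NIP and 9 SIP rows, and 2 rows with no subfamily name. The word aquaporin in the description was the only criterion, so no expression value entered the choice of the 67. The rows named below were chosen with earlier results of these data known, some of them after their values were seen.

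All RNA came from Gossypium hirsutum accession TM-1, with no mutant or treated plants. Floral, bracteal, circumbracteal and foliar nectaries were dissected together with non-nectary tissue adjacent to each, and RNA of several pooled nectaries made up a replicate. The sample records and the study's methods differ in how many nectaries were pooled, and neither says that replicates came from separate plants, so the p-values measure the spread between these RNA samples. Floral tissue was taken before, at and after secretion, that is around the opening of the flower, in 2, 3 and 3 nectary samples and 3 adjacent samples at each stage. The study's methods place these stages 24 h before anthesis, on its day and 24 h later. Bracteal and circumbracteal tissues were taken pre-secretory, as young squares, and post-secretory, 19 to 24 days after anthesis. They had 2 pre-secretory samples in each bracteal tissue and 3 in all their other groups. Foliar tissues were taken on leaves with a midvein of 5 to 6 cm (pre-secretory, 2 samples per tissue), of 12 to 15 cm (secretory, 1 sample per tissue) and on mature leaves without visible nectar (post-secretory, 3 samples per tissue). These 51 RNA samples were used. The study's secretory bracteal and circumbracteal samples, and further secretory foliar ones, belong to another sequencing set that was not analysed here.

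Aquaporins are membrane channels that let water, and in some subfamilies small neutral solutes, pass along a gradient. The plasma membrane intrinsic proteins (PIPs) sit in the cell membrane; PIP2 proteins form efficient water channels when expressed alone in frog oocytes, whereas several PIP1 proteins of maize reach the plasma membrane when a PIP2 partner is present. Tonoplast intrinsic proteins (TIPs) lie in the vacuolar membrane, nodulin 26-like proteins (NIPs) include the boric acid and silicic acid channels, and small basic proteins (SIPs) are found in the endoplasmic reticulum of Arabidopsis. Nectar is a sugar solution, and cotton secretes it from multicellular glandular trichomes called papillae.

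The values are length-scaled, and each RNA sample was scaled by its upper quartile. They are called levels below, and a level has no physical unit. Totals before that scaling were 7489375 to 16203450 per RNA sample (median 10187922), and the number of rows above 0 was 30965 to 48112 (median 45319), with the lowest value in a pre-secretory circumbracteal nectary. A row was called at an adjusted p under 0.05 (limma, Benjamini-Hochberg over 48534 tested rows) and a change of at least 1.5-fold. Fold changes are given on the scale of log2(level + 1) with their standard errors (SE). In whole tissue, fewer cells of a type and less RNA per cell cannot be told apart. The defining markers of the labelled tissues were read as well. The 2 SWEET9 rows, a sucrose exporter of nectaries in other species, summed to 28.5 to 71.6 in pre-secretory and 176 to 378 in secretory floral nectaries, against 0 to 4.81 in the adjacent tissue of these stages. SWEET9 was listed at 0 in every extrafloral library used here. None of these came from secretory bracteal or circumbracteal tissue. The study measured SWEET9 in bracteal nectaries by RT-qPCR and describes its expression in the extrafloral nectaries. CRABS CLAW, a nectary transcription factor of Arabidopsis, was between 0 and 5.64 in floral nectaries, which is near absence, and reached 149 in pre-secretory circumbracteal nectaries. Its floral levels were 0 to 1.90, 0 to 2.85 and 0 to 5.64 in nectaries over the 3 stages, against 1.86 to 6.39, 2.68 to 5.76 and 4.95 to 33.6 in adjacent tissue, and it was called lower in the floral nectary after secretion. Of 21 phloem rows, 4 were lower in the floral nectary at each stage, with sums of 700 to 1082 in floral nectaries against 1546 to 8056 in adjacent tissue. Of 35 chlorophyll a-b binding rows, which mark green cells, none was called in the secretory and post-secretory floral comparisons and 3 were lower at the pre-secretory stage. In pre-secretory foliar tissue these 35 rows summed to 33744 to 72377 in nectaries against 108489 to 186252 in adjacent tissue. The part of these cell types in the aquaporin results was not tested. All calls share a spread estimated over all groups. Where the fit held the compared groups only, 99 of 246 aquaporin calls were kept over the comparisons within nectary types, and where that fit ended a call with values below, this is said beside it.

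All 67 aquaporin rows passed the filter on low values, and 36 were above 0 in every RNA sample. Together they made up 0.181% of the signal in pre-secretory floral nectaries, 0.550% in secretory ones and 0.496% in post-secretory ones, against 0.351%, 0.259% and 0.310% in the adjacent tissue of the same stages. TIP rows held 33.1% of the aquaporin signal over all samples, PIP2 rows 29.2%, PIP1 rows 23.6%, PIP-type 7a rows 6.00%, NIP rows 4.71%, SIP rows 2.89% and the rows without a subfamily 0.412%. Single rows carried much of each share. The highest mean over the 51 samples was 7028 for the TIP1-1 row XP_016680708.1 among the TIPs, whose Arabidopsis counterpart is an abundant vacuolar water channel. PIP1-3-like (XP_016702819.1) averaged 5320, PIP2-2-like (XP_016687415.1) 2146, NIP5-1 (XP_016695711.1) 814, PIP-type 7a (XP_016753761.1) 797, SIP1-1-like (XP_016673585.1) 286 and the row described only as aquaporin-like (XP_016714450.1) 155.

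**Figure D1:**
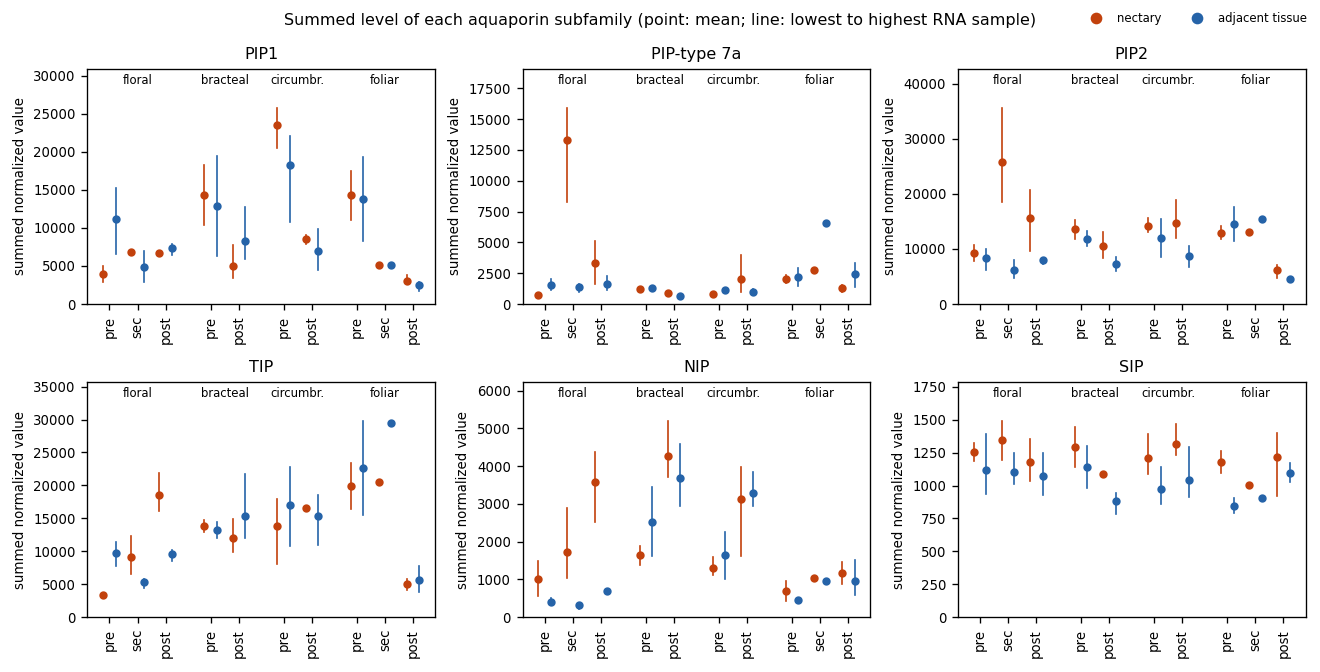
Summed level of each aquaporin subfamily (y axis, normalized value with no unit) in nectary (orange) and adjacent tissue (blue) by nectary type and stage; points are means over RNA samples and lines run from the lowest to the highest sample. The PIP-type 7a sum of secretory floral nectaries averages 13283, against 1422 in adjacent tissue, and the foliar TIP sum averages 19955 in pre-secretory and 4982 in post-secretory nectaries.

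The subfamilies moved separately in the floral nectary. The PIP-type 7a sum averaged 702, 13283 and 3315 before, during and after secretion. The PIP2 sum averaged 9356, 25720 and 15697, and thus had its highest value at the secretory stage as well. The TIP sum followed another course, with 3342, 9188 and 18537, and was highest after secretion, as was the NIP sum with 1021, 1740 and 3568. The SIP sum stayed between 1034 and 1488 in every floral nectary sample. In adjacent floral tissue, the PIP-type 7a sum averaged 1584, 1422 and 1664 and the PIP2 sum 8287, 6140 and 7912 over the same stages. The TIP sum averaged 9739, 5334 and 9553 there, and so was also higher after secretion than during it. The adjacent NIP sum averaged 410, 324 and 700 and was likewise highest after secretion. The PIP1 sum averaged 3997, 6781 and 6760 in nectaries and 11155, 4903 and 7395 in adjacent tissue. These sums are descriptions and were not tested.

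Floral nectaries differed from adjacent tissue in more aquaporins than the extrafloral nectaries did by count, and the members changed with the stage. The extrafloral nectaries were tested before and after secretion but not during it. Before secretion 5 aquaporins were higher in the nectary and 13 lower, while 3.69% of all tested rows were higher and 4.34% lower, 8.03% in either direction. During secretion 18 were higher and 9 lower (3.07% and 5.37% of all rows, 8.44% in either direction). After secretion 11 were higher and 5 lower (1.78% and 2.03% of all rows, 3.82% in either direction). The median log2 change of the 67 aquaporins was -0.84, -0.04 and 0.26 at the 3 stages, against -0.02, -0.10 and -0.02 for all rows. The count at the first stage was 9 without nectary replicate 1 and 10 without nectary replicate 2, and at the last stage it was 10 without nectary replicate 2 or adjacent replicate 1. In the fit on the compared groups only, 10 of 18, 20 of 27 and 9 of 16 calls were kept.

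The replicate number pairs the floral samples at the secretory and post-secretory stages. With that number as a block, 33 aquaporins were called during secretion (12.6% of all rows) and 22 after it (6.37%). The 6 added during secretion were higher for PIP2-2 (XP_016754782.1), TIP1-1 (XP_016680708.1) and TIP1-1-like (XP_016687447.1), and lower for PIP2-7-like (XP_016707660.1), PIP2-8 (XP_016737231.1) and TIP1-1-like (XP_016679105.1), at adjusted p of 0.0064 to 0.046. The 6 added after secretion were higher for PIP-type 7a (XP_016722999.1), PIP2-2-like (XP_016687415.1) and NIP6-1-like (XP_016688900.1), and lower for PIP1-3-like (XP_016702819.1), PIP2-8 (XP_016714451.1) and aquaporin-like XP_016714450.1, at adjusted p of 0.00032 to 0.044. No call of these stages was lost.

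PIP-type 7a rows were the group most uniformly higher in secretory floral nectaries, with 7 of 8 called higher and none lower. Proteins of this name belong with the PIP1 type by their best Arabidopsis matches, AT4G00430 and AT2G45960. The largest of them, XP_016733885.1, had levels of 8112, 8964 and 4822 in secretory nectaries, against 116, 365 and 587 in adjacent tissue. The groups did not overlap, and the log2 change was 4.59 ± 0.81 (SE, adjusted p = 0.00016). XP_016703773.1 had 2325, 1119 and 569 in secretory nectaries, against 20.9, 40.4 and 68.0 in adjacent tissue. All nectary samples exceeded all adjacent samples, with a log2 change of 4.85 ± 0.99 (adjusted p = 0.00096). XP_016716431.1 had 468, 219 and 136 in nectaries and 5.62, 9.88 and 11.6 in adjacent tissue, again without overlap (4.64 ± 0.92, adjusted p = 0.00075). XP_016723000.1 (4.42 ± 1.12, adjusted p = 0.008) and XP_016723001.1 (4.99 ± 1.29, adjusted p = 0.0098) were higher too, and both calls were lost without adjacent replicate 1 (adjusted p of 0.073 and 0.083). XP_016753761.1, the row with the highest mean of the group, changed least among those called, with 2772, 3087 and 1268 in nectaries against 759.7, 1065 and 741 in adjacent tissue. Its lowest nectary sample was just above the highest adjacent sample (1.39 ± 0.34, adjusted p = 0.0063), and the call was lost without nectary replicate 2 (adjusted p = 0.070) and in the fit on the compared groups only (adjusted p = 0.11). In the other 8 nectary comparisons, 1 call of a PIP-type 7a row was higher, in post-secretory bracteal tissue, and 1 was lower, in pre-secretory floral tissue. Both were lost in the fit on the compared groups only (adjusted p of 0.36 and 0.24). The block added a higher call of XP_016722999.1 in post-secretory floral tissue (2.12 on the log2 scale, adjusted p = 0.00032) and a lower call of the same row in post-secretory foliar tissue (-1.32, adjusted p = 0.027).

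Among the PIP1 rows, PIP1-4 (XP_016669805.1, gene LOC107889765) was the one higher in the secretory floral nectary. Its levels there were 6368, 5186 and 4202, against 304, 768 and 774 in adjacent tissue. The groups were far apart, with a log2 change of 3.19 ± 0.55 (adjusted p = 0.00013). After secretion it had 2890.4, 3285 and 2408 in nectaries and 332, 789 and 421 in adjacent tissue, still without overlap (2.56 ± 0.55, adjusted p = 0.0032). The most abundant PIP1 row, PIP1-3-like (XP_016702819.1), went the other way at the secretory stage, with 545, 571 and 1929 in nectaries against 2349.7, 3614 and 5653 in adjacent tissue. Every nectary sample lay below every adjacent sample (-2.11 ± 0.48, adjusted p = 0.0029), but in the fit on the compared groups only its adjusted p was 0.11.

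PIP2 rows split into members higher and members lower in the floral nectary. PIP2-2-like (XP_016669575.1) and PIP2-1 (XP_016671298.1) were called higher at all 3 stages, and both have Arabidopsis PIP2;2 (AT2G37170) as their best match. PIP2-2-like (XP_016669575.1) had 4561 and 1714 in pre-secretory nectaries, against 75.7, 70.7 and 21.5 in adjacent tissue. In secretory tissue it had 8802, 18522 and 6088 in nectaries, against 132, 889 and 472 in adjacent tissue. In both stages the nectary samples were all higher, with log2 changes of 5.81 ± 0.96 (adjusted p = 5.8e-05) and 4.70 ± 0.86 (adjusted p = 0.00025), and the row held the highest single level of any PIP2. After secretion the change was 2.92 ± 0.86 (adjusted p = 0.043), and that call was lost without nectary replicate 1 or 2 or adjacent replicate 1 or 3 (adjusted p of 0.089 to 0.27). PIP2-1 (XP_016671298.1) had 1801, 5120.1 and 1554 in secretory nectaries and 40.9, 226 and 96.6 in adjacent tissue (4.64 ± 0.80, adjusted p = 0.00013), and its nectary samples too were all above the adjacent ones. Its post-secretory call (2.92 ± 0.80, adjusted p = 0.026) was lost without nectary replicate 1 or 2 or adjacent replicate 3 (adjusted p of 0.095 to 0.26), and its pre-secretory call (4.00 ± 0.90) without nectary replicate 1 (adjusted p = 0.14). With only the compared groups fitted, both post-secretory calls were lost (adjusted p of 0.13 and 0.18).

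Further rows matched to PIP2;2, 3 in number, stood higher at the secretory stage. PIP2-2-like (XP_016687415.1) had 5089, 6197 and 3504 in nectaries, against 169, 299 and 353 in adjacent tissue. No sample overlapped (4.19 ± 0.58, adjusted p = 4.3e-06), and after secretion the same row had 617, 1169 and 315 in nectaries against 252, 269.6 and 189 in adjacent tissue, which was not called (1.38 on the log2 scale, adjusted p = 0.24) unless the replicate number, which pairs these samples, was a block (adjusted p = 0.017). PIP2-2 (XP_016738356.1) and PIP2-2-like (XP_016680902.1) were higher at the secretory stage by 2.28 ± 0.48 (adjusted p = 0.0013) and 2.73 ± 0.56 (adjusted p = 0.001). Both were also called after secretion, at 2.16 ± 0.48 and 2.42 ± 0.56, the first of these not without adjacent replicate 1 (adjusted p = 0.061). The remaining rows matched to PIP2;2, PIP2-2 XP_016754782.1, XP_016729032.1 and XP_016727044.1, were not called higher at the secretory stage without the block. For XP_016754782.1 the adjusted p was 0.060 without it and 0.045 with it. PIP2-7-like (XP_016698608.1) was lower at all 3 stages, with 4.09 and 7.60, then 21.9, 8.55 and 25.0, then 56.8, 14.1 and 8.36 in nectaries. Its adjacent levels were 161, 246 and 112, then 89.8, 166 and 86.8, then 139, 110.3 and 81.5, so that no nectary sample reached an adjacent one. The log2 changes of -4.64 ± 0.56 (adjusted p = 3.2e-07), -2.63 ± 0.50 (adjusted p = 0.00047) and -2.43 ± 0.50 (adjusted p = 0.0021) held without any single library, and the last was lost in the fit on the compared groups only (adjusted p = 0.14). PIP2-7-like (XP_016678583.1) was lower at all 3 stages as well. Its pre-secretory change of -4.25 ± 0.69 (adjusted p = 4.8e-05) held without any single library, whereas 4 and 5 of the 6 libraries were each needed for the secretory and post-secretory calls (adjusted p up to 0.12 and 0.24 without them), and both were lost in the fit on the compared groups only (0.14 and 0.075).

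**Figure D2:**
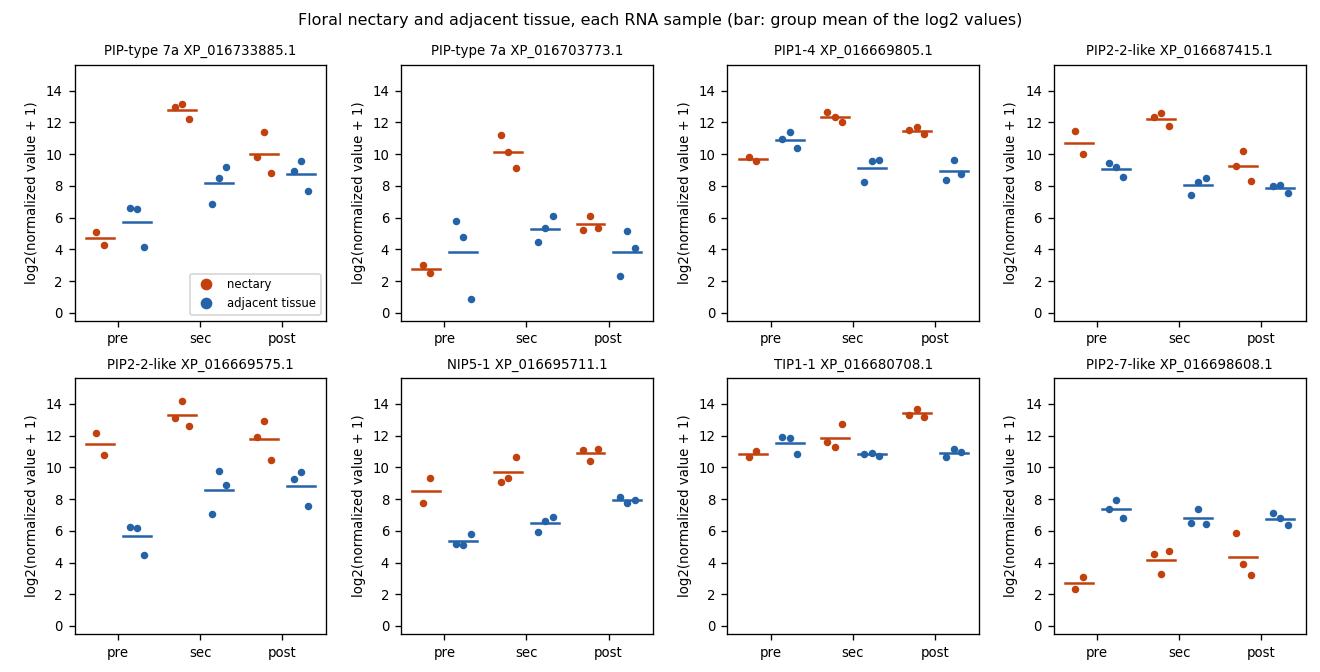
Levels of 8 aquaporin rows in single floral RNA samples (y axis, log2 of the normalized value + 1) by stage in developmental order, with nectary in orange and adjacent tissue in blue. The 3 secretory nectary samples of PIP-type 7a XP_016733885.1 lie at levels of 4822 to 8964, above all adjacent samples, and those of PIP2-7-like XP_016698608.1 at 8.55 to 25.0, below all adjacent samples.

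TIP rows showed 3 courses in floral tissue. TIP1-1 (XP_016680708.1) had 10240.1, 13214 and 9384 in post-secretory nectaries, against 1581, 2242 and 1972 in adjacent tissue. All nectary samples were higher, by 2.50 ± 0.40 on the log2 scale (adjusted p = 6.9e-05), while at the secretory stage the row was not called (1.05, adjusted p = 0.10; 0.033 with the block on replicate number). TIP1-2 (XP_016719254.1) was higher after secretion at 129, 157 and 152, against 8.91, 21.1 and 15.3 (3.26 ± 0.59, adjusted p = 0.00047), with a wide gap between the groups. TIP1-3 (XP_016724656.1), whose Arabidopsis counterpart is known from pollen, had 111, 27.5 and 71.5 in secretory nectaries, against 1.60, 1.65 and 0 in adjacent tissue. The groups did not overlap (5.01 ± 1.09, adjusted p = 0.0018). TIP1-3-like (XP_016678856.1) was called higher at all 3 stages, with secretory levels of 239, 106 and 176 in nectaries against 16.0, 6.59 and 9.84 in adjacent tissue. That change of 3.89 ± 1.03 (adjusted p = 0.011) was lost without nectary replicate 1 or adjacent replicate 2 (adjusted p of 0.053 and 0.064). Its pre-secretory and post-secretory calls were lost in the fit on the compared groups only (adjusted p of 0.29 and 0.14). The TIP2-1 rows, whose Arabidopsis match AT3G16240 encodes the vacuolar channel TIP2;1, were lower before secretion. TIP2-1-like (XP_016742256.1) had 514 and 414 in pre-secretory nectaries, against 2449, 3278 and 2550.5 in adjacent tissue. The nectary samples were below all adjacent ones (-2.56 ± 0.67, adjusted p = 0.01), and without either nectary replicate the call was lost (adjusted p of 0.076 and 0.096).

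The NIP rows called higher in floral nectaries were a pair of NIP5-1 rows, at each stage. Of the 11 NIP rows, 2, 1 and 2 were called lower at the 3 stages, and the median log2 change was -1.55, -0.73 and -1.51. NIP5;1 of Arabidopsis is a boric acid channel of the plasma membrane that serves boron uptake in roots. NIP5-1 (XP_016695711.1, LOC107912143) had 213 and 633, then 531, 640.0 and 1619, then 2221, 1342 and 2227 in floral nectaries over the stages. Adjacent tissue had 34.7, 33.5 and 53.4, then 60.2, 95.5 and 116, then 279, 211 and 239.8. Each nectary sample exceeded every adjacent sample of its stage. The log2 changes were 3.18 ± 0.49 (adjusted p = 2.2e-05), 3.21 ± 0.44 (adjusted p = 3.7e-06) and 2.95 ± 0.44 (adjusted p = 2.7e-05), and they held without any single library. The second NIP5-1 row (XP_016707823.1, LOC107922341) changed by 3.27 ± 0.60, 3.11 ± 0.54 and 2.94 ± 0.54. When the compared groups alone were fitted, the pre-secretory calls of both rows were lost (adjusted p of 0.058 and 0.084). The levels of the second row had a Pearson correlation of 0.970 with the first over the 51 samples on the log2 scale. Reads of near-identical gene copies may have been divided between such rows. The 4 NIP2-1-like rows, which are isoforms of 2 genes, were low. Among them, XP_016695229.1 had 1.82, 1.90 and 0 in secretory nectaries against 28.1, 18.1 and 21.5 in adjacent tissue, without overlap (-3.53 ± 0.82, adjusted p = 0.0037).

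No SIP row was called before or after secretion in floral tissue, and 1 of 9, SIP2-1 (XP_016684963.1), was lower during secretion (-1.90 ± 0.48, adjusted p = 0.0087), a call lost without nectary replicate 3 (adjusted p = 0.075) and in the fit on the compared groups only (adjusted p = 0.11). Aquaporin-like XP_016714450.1 had 9.20 and 2.85 in pre-secretory nectaries, against 389, 499.7 and 72.4 in adjacent tissue. At the secretory stage it had 5.47, 8.55 and 0, against 49.7, 175 and 85.0. No samples overlapped at either stage, and the log2 changes were -5.28 ± 0.97 (adjusted p = 0.00026) and -4.53 ± 0.87 (adjusted p = 0.00046). Both were lost in the fit on the compared groups only (adjusted p of 0.070 and 0.054).

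**Figure D3:**
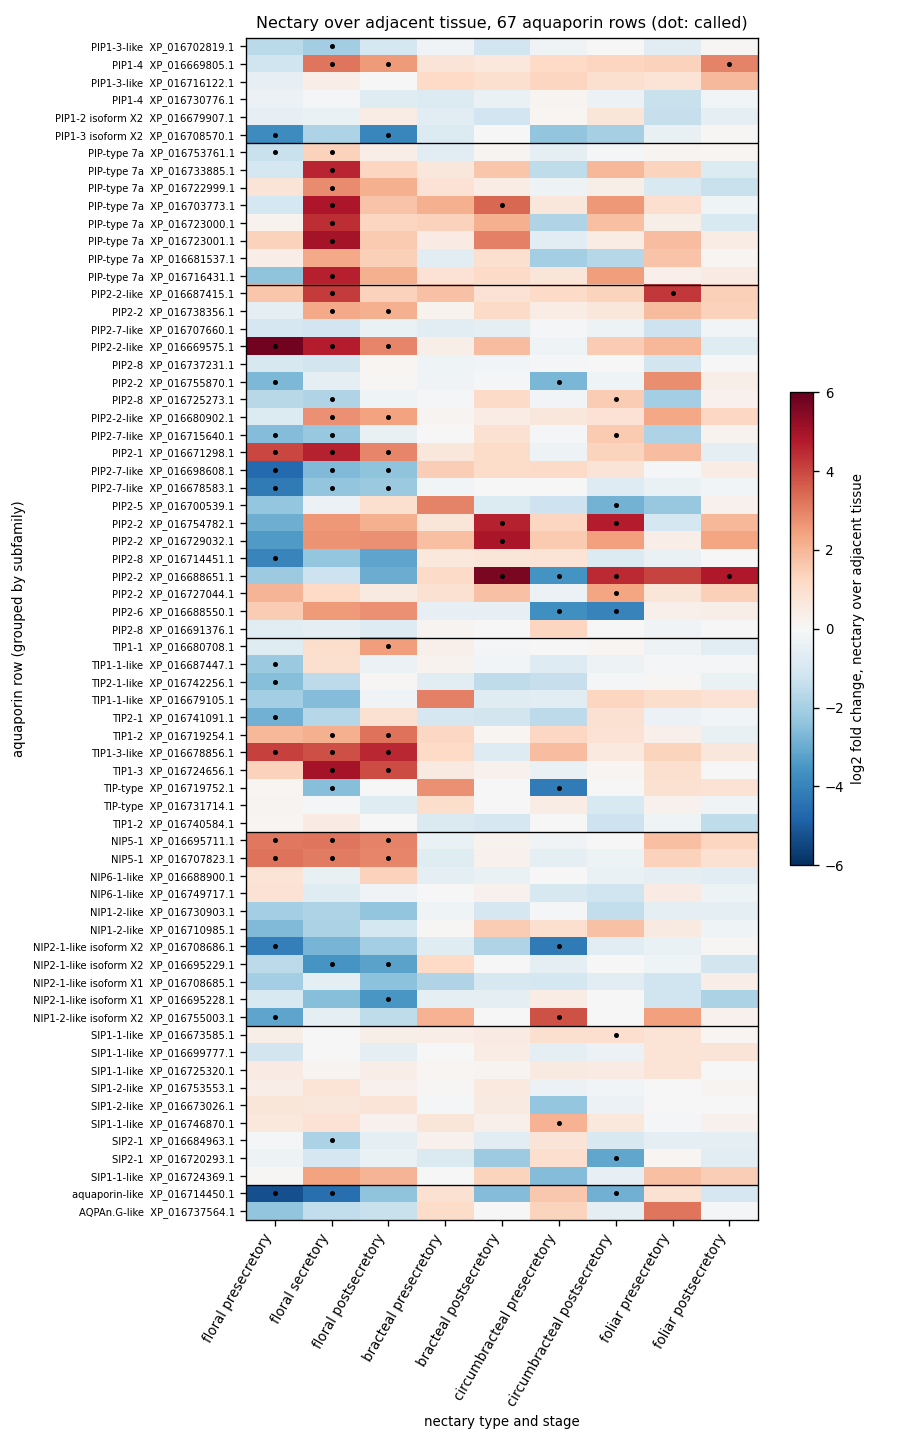
Log2 fold change of nectary over adjacent tissue (colour) for all 67 aquaporin rows, grouped by subfamily, in the 9 comparisons with replicates (columns); a dot marks a row called at an adjusted p under 0.05 and 1.5-fold. Floral columns hold 18, 27 and 16 dots, bracteal columns 0 and 4, circumbracteal columns 7 and 10, and foliar columns 1 and 2.

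From the pre-secretory to the secretory stage, 13 aquaporins rose and 2 fell in the floral nectary, beside 2.5% and 2.23% of all rows (4.73% in either direction). PIP-type 7a supplied 7 of the 13. XP_016733885.1 had 8112, 8964 and 4822 in secretory nectaries, against 33.7 and 18.0 in pre-secretory ones (8.10 ± 0.90 on the log2 scale, adjusted p = 1.7e-07). XP_016703773.1 had 2325, 1119 and 569, against 7.16 and 4.75 (7.38 on the log2 scale, adjusted p = 3e-05). In both rows every secretory sample was far above both pre-secretory ones, and the calls held without any single library. PIP2-2-like (XP_016680902.1) rose to 1192, 1214 and 1042, against 60.3 and 137 before secretion (3.64 ± 0.63, adjusted p = 0.0002). TIP1-1-like (XP_016687447.1) had 4991, 3658 and 2328 in secretory nectaries and 344 and 483 in pre-secretory ones, with no overlap (3.10 ± 0.49, adjusted p = 6.9e-05). PIP1-4 (XP_016669805.1) rose by 2.64 ± 0.62 (adjusted p = 0.0064), a call lost without either pre-secretory nectary sample (adjusted p of 0.073 and 0.074). Beside these, 9 of 35 chlorophyll a-b binding rows rose and 10 of 22 pigment gland cadinene synthase rows fell in the floral nectary over this interval. The part of these cells in the aquaporin changes was not tested. The count of 15 aquaporins fell to 8 without pre-secretory replicate 1 or without replicate 2, and to 4 in the fit on the compared groups only. That fit kept XP_016733885.1 and XP_016703773.1, and it ended the calls of PIP2-2-like (XP_016680902.1), TIP1-1-like (XP_016687447.1) and PIP1-4 (XP_016669805.1) at adjusted p of 0.056, 0.082 and 0.074.

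In adjacent floral tissue the same interval gave no rise and 1 fall among the 67 (1.12% and 0.565% of all rows, 1.69% in either direction). The fall was that of TIP2-1 (XP_016741091.1, -2.84 ± 0.72, adjusted p = 0.026), lost without any of 5 of the 6 samples. The difference between nectary and adjacent tissue in the change was tested by itself. It was positive and called for 5 aquaporins and negative for none, where 0.0742% of all rows were called in each direction. The 5 were PIP1-4 (XP_016669805.1, 4.40 ± 0.83 on the log2 scale, adjusted p = 0.012), the PIP-type 7a rows XP_016753761.1, XP_016733885.1 and XP_016716431.1 with 2.72 ± 0.51, 5.65 ± 1.21 and 7.06 ± 1.39 (adjusted p of 0.012, 0.034 and 0.015), and TIP1-1-like (XP_016687447.1, 3.18 ± 0.66, adjusted p = 0.025). The count was 1 without nectary pre-secretory replicate 1 or 2, nectary secretory replicate 1 or adjacent secretory replicate 1, 2 without adjacent pre-secretory replicate 1 or 2, and 3 without adjacent secretory replicate 2. In the fit on the compared groups only, PIP1-4 was the 1 call left, and the other 4 had adjusted p of 0.07 to 0.21.

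In the interval that followed secretion, 9 aquaporins were higher and 4 lower in post-secretory than in secretory floral nectaries (2.43% and 1.53% of all rows, 3.95% in either direction). Over this interval 9 of 35 chlorophyll a-b binding rows rose in the nectary and none fell, with sums of 21736 to 46218 after secretion against 4359 to 16884 during it, and their part in the aquaporin changes was not tested. Falls were seen in PIP-type 7a and PIP2, and 4 of the 9 rises were of TIP rows. PIP-type 7a XP_016703773.1 had 36.3, 68.6 and 39.7 after secretion, against 2325, 1119 and 569 during it (-4.59 ± 0.99, adjusted p = 0.0042). PIP2-2-like (XP_016687415.1) fell to 617, 1169 and 315, against 5089, 6197 and 3504 during secretion (-2.97 ± 0.58, adjusted p = 0.0016). Neither pair of groups overlapped, and both calls held without any single library. With only the compared groups fitted, none of the 13 was called over this interval, and these 2 rows had adjusted p of 0.098 and 0.18. PIP-type 7a XP_016733885.1 fell to 901, 2655 and 441 (-2.79 ± 0.81, adjusted p = 0.039), but its adjusted p was 0.061 once the replicate number, which pairs these samples, entered as a block, while the block added a fall of XP_016723001.1 (adjusted p = 0.038). The call of XP_016733885.1 was also lost without secretory replicate 1, secretory replicate 2, post-secretory replicate 1 or post-secretory replicate 3 (adjusted p of 0.13 to 0.28). NIP6-1-like (XP_016688900.1), related to an Arabidopsis boric acid channel of young shoots, rose to 77.2, 41.4 and 52.3, against 2.74, 10.4 and 10.2 (2.84 ± 0.54, adjusted p = 0.0014), without overlap.

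TIP2-1 (XP_016741091.1) had 853, 580.0 and 918 after secretion, against 17.3, 32.3 and 621 during it. Secretory replicate 3 lay inside the post-secretory range while the other 2 were far below (3.41 ± 0.72, adjusted p = 0.0035), and the call was lost without secretory replicate 1 or 2 (adjusted p of 0.075 and 0.078). The same replicate 3 was nearest to the post-secretory levels in TIP1-1-like (XP_016679105.1), with 1218, against 20.1 and 31.3 in the other secretory nectaries and 2368, 1004 and 2146 after secretion. For TIP1-1 (XP_016680708.1) it had 6796, against 3146 and 2448 in replicates 1 and 2. The count of 13 was 5 and 4 without secretory replicate 1 and 2, and 7 without post-secretory replicate 1 or 3. In adjacent tissue no aquaporin was called over this interval by limma (0.0144% higher and 0.148% lower of all rows; 5 of 67 at an unadjusted p under 0.05). The test of the difference called none either, with 0.0144% of all rows positive and 0.00824% negative, and 11 of 67 had an unadjusted p under 0.05.

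Over the whole span, 12 aquaporins were higher and none lower in post-secretory than in pre-secretory floral nectaries (4.34% and 3.09% of all rows, 7.43% in either direction). PIP2-2 (XP_016755870.1) had 1333, 1609 and 709 after secretion, against 54.2 and 66.5 before it (4.24 ± 0.79, adjusted p = 0.00038). TIP1-1 (XP_016680708.1) had 10240.1, 13214 and 9384, against 1571 and 2116 (2.57 ± 0.44, adjusted p = 0.00013). Neither row overlapped between these stages, and both held without any single library, but TIP1-1 had an adjusted p of 0.068 in the fit on the compared groups only. Over the same span 28 of 35 chlorophyll a-b binding rows rose in the nectary, whose summed level was 21736 to 46218 after secretion and 1912 to 3799 before it, and the part of this in the aquaporin changes was not tested. The count fell to 6 without pre-secretory replicate 1 and in the fit on the compared groups only. In adjacent floral tissue 4 rose and 1 fell over the same span (1.56% and 1.27% of all rows, 2.83% in either direction), and 2 of the 4, among them NIP5-1 (XP_016695711.1, 2.58 ± 0.44, adjusted p = 0.00032), also rose in the nectary. The nectary rise of NIP5-1 was lost in the fit on the compared groups only (adjusted p = 0.12). The adjacent count was 1 without post-secretory replicate 1, 2 without pre-secretory replicate 1 or 2 and 3 without post-secretory replicate 2 or 3.

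By count, fewer aquaporins were called in extrafloral than in floral nectaries against adjacent tissue. The extrafloral tests covered the stages before and after secretion and not secretion itself. The share of all rows called differed between these comparisons as well and is given beside each count. In bracteal tissue before secretion none of the 67 was called by limma, at 0.0391% higher and 0.0227% lower of all rows (0.0618% in either direction), and 5 had an unadjusted p under 0.05. After secretion 4 were higher and none lower in the bracteal nectary (1.28% and 1.25% of all rows, 2.53% in either direction). PIP2-2 (XP_016754782.1, LOC107962781) had 88.4, 71.0 and 30.7 in nectaries, against 0, 5.47 and 1.13 in adjacent tissue (4.62 ± 0.88, adjusted p = 0.0013). PIP2-2 (XP_016688651.1, LOC107906224) had 71.0, 89.1 and 38.4, against 0, 1.09 and 0 (5.63 ± 1.13, adjusted p = 0.0023). Both rows had no overlap and were low overall. Once the replicate number, which pairs these samples, entered as a block, 8 were called, 6 of them higher (4.01% of all rows in either direction). The 4 added were PIP2-2 (XP_016738356.1) and PIP2-2-like (XP_016669575.1), higher, and PIP1-3-like (XP_016702819.1) and aquaporin-like XP_016714450.1, lower. When the compared groups alone were fitted, XP_016688651.1 was the 1 call left (adjusted p = 0.030), and XP_016754782.1 had an adjusted p of 0.12. The count was 2 without nectary replicate 1 or 2 or adjacent replicate 1 or 3.

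In circumbracteal tissue 2 aquaporins were higher and 5 lower before secretion (1.16% and 6.06% of all rows, 7.22% in either direction), and 6 higher and 4 lower after it (1.62% and 4.83% of all rows, 6.45% in either direction). The median log2 change of all rows was -0.27 and -0.26 in these comparisons, and fewer rows were above 0 in the nectaries, so the log2 values below include that shift. In the nectary 5 of 35 chlorophyll a-b binding rows were lower before secretion and 3 after it, with sums of 7226 to 13484 against 17346 to 34622 before and 7445 to 11334 against 11778 to 34402 after. Of 21 phloem rows, 1 was lower before secretion and 4 after it, with sums of 2799 to 3810 in nectaries against 4028 to 6856 in adjacent tissue before, and 1128 to 1578 against 1244 to 1570 after. None of either list was higher, and their part in the aquaporin values was not tested. PIP2-2 (XP_016754782.1) was again higher after secretion, with 121, 132 and 62.7 in nectaries against 9.97, 0 and 4.28 in adjacent tissue. The gap was wide (4.71 ± 0.88, adjusted p = 0.00072), and the call held without any single library but not in the fit on the compared groups only (adjusted p = 0.17). That fit called no circumbracteal aquaporin at either stage, at adjusted p of 0.093 to 0.54 for the 7 pre-secretory and 0.17 to 0.46 for the 10 post-secretory rows. PIP2-2 (XP_016688651.1) was listed at 0 in all 3 pre-secretory nectaries, against 3.96, 9.69 and 30.6 in adjacent tissue, and had 17.7, 72.9 and 84.7 in post-secretory nectaries, against 0, 0 and 9.63. It was therefore called lower before secretion (adjusted p = 0.046) and higher after it (4.48 ± 1.13, adjusted p = 0.013). Both calls depended on single libraries, 5 and 3 of the 6, with adjusted p up to 0.17 and 0.078. The pre-secretory count was 4 without nectary replicate 3 or adjacent replicate 2. The post-secretory count was 2 without nectary replicate 1 or 2 or adjacent replicate 2, 3 without adjacent replicate 3 and 4 without adjacent replicate 1.

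In foliar tissue 1 aquaporin was higher before secretion and 2 after it, and none was lower (of all rows, 0.595% and 1.18% were higher, 0.103% and 0.839% lower, and 0.698% and 2.02% were called in either direction). The first was PIP2-2-like (XP_016687415.1), with 3964 and 3283 in pre-secretory nectaries, against 421 and 82.5 in adjacent tissue. Both nectary samples were higher (4.26 ± 0.71, adjusted p = 0.00042), and without adjacent replicate 3 the call was lost (adjusted p = 0.12). PIP1-4 (XP_016669805.1) had 132, 215 and 157 in post-secretory nectaries, against 20.9, 48.3 and 7.44 in adjacent tissue, a clear separation (2.99 ± 0.55, adjusted p = 0.0007). PIP2-2 (XP_016688651.1) had 78.8, 54.8 and 32.5, against 0, 2.63 and 0.93, without overlap (4.79 ± 1.13, adjusted p = 0.012), and was lost without nectary replicate 1 or adjacent replicate 1 (adjusted p of 0.075 and 0.085). In the same comparison 13 of 22 pigment gland rows were lower in the nectary, with sums of 79.9 to 287 against 1177 to 3642. Blocking on the replicate number, which pairs the post-secretory samples, gave 7 calls after secretion, 6 of them higher (3.05% of all rows in either direction). The 5 added were PIP1-3-like (XP_016716122.1), PIP2-2-like (XP_016687415.1), PIP2-2 (XP_016738356.1) and NIP5-1 (XP_016695711.1), higher, and PIP-type 7a XP_016722999.1, lower. In the fit on the compared groups only, PIP2-2-like (XP_016687415.1) before secretion and PIP1-4 after it were lost (adjusted p of 0.37 and 0.10), and PIP2-2 (XP_016688651.1) was kept (adjusted p = 0.034). The pre-secretory count was 0 without adjacent replicate 3 and 2 without nectary replicate 1 or adjacent replicate 1, and the post-secretory count was 1 without adjacent replicate 1.

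Over all 9 comparisons, 28 aquaporins were higher in a nectary at least once, 23 were lower at least once, 5 of these were both, and 21 were never called. Of all tested rows, 8.94% were higher at least once, 16.9% lower at least once and 25.1% either. In the 3 floral comparisons 19 were higher and 19 lower at least once, beside 5.86% and 7.84% of all rows, and in the 6 extrafloral comparisons 12 and 8 were, beside 4.24% and 11.2% of all rows. PIP2-2 (XP_016688651.1) was the row called higher in all 3 extrafloral types after secretion, and in floral tissue after secretion it had 30.7, 52.6 and 0 in nectaries against 181, 110.3 and 38.4 in adjacent tissue, which was not called.

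**Figure D4:**
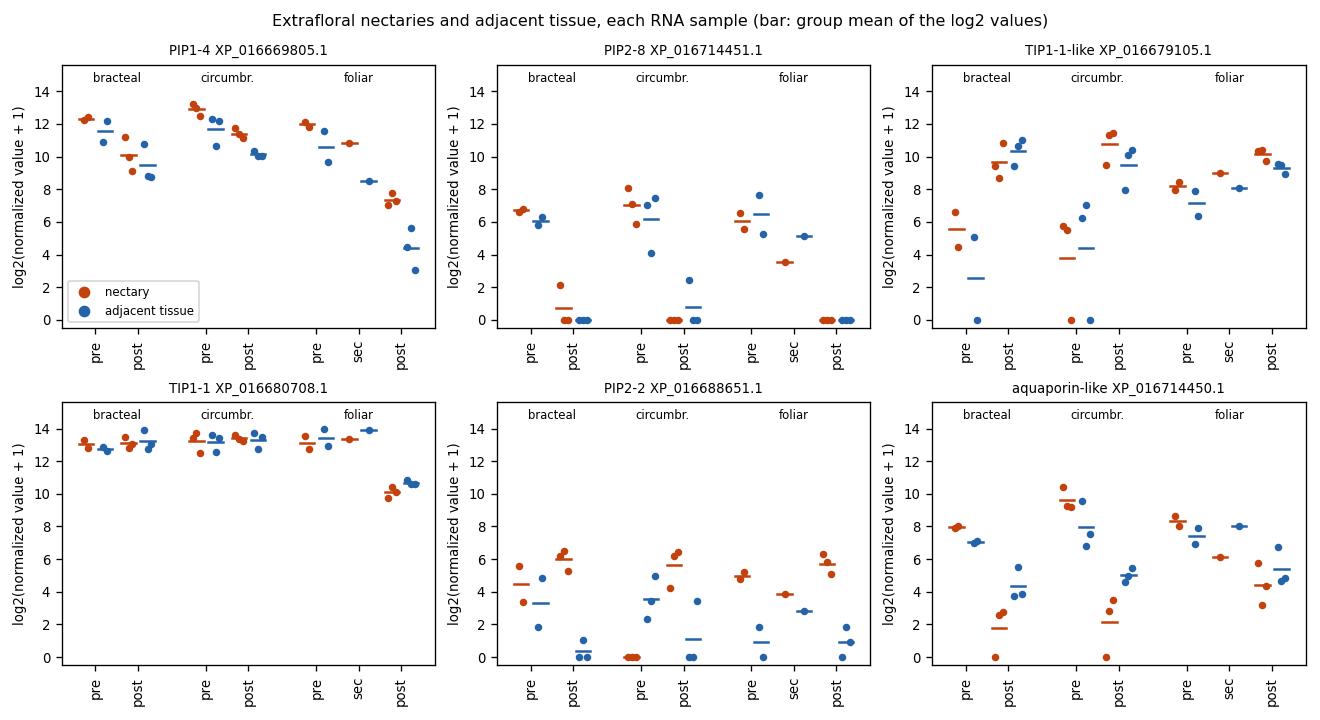
Levels of 6 aquaporin rows in single bracteal, circumbracteal and foliar RNA samples (y axis, log2 of the normalized value + 1), with nectary in orange and adjacent tissue in blue, by stage. Aquaporin-like XP_016714450.1 lies at 236 to 1342 in pre-secretory bracteal and circumbracteal nectaries and at 0 to 10.5 in post-secretory ones, and PIP2-8 XP_016714451.1 is at 0 in nearly all post-secretory samples.

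From the pre-secretory to the post-secretory stage, aquaporins fell more often than they rose in each extrafloral nectary. In the bracteal nectary none rose and 10 fell (1.39% and 3.22% of all rows), in the circumbracteal nectary 8 rose and 16 fell (12.4% and 10.2%), and in the foliar nectary 2 rose and 20 fell (3.72% and 8.64%). The median log2 change of the 67 was -0.70, -0.49 and -1.11, against -0.01, 0.09 and 0.08 for all rows. PIP2 rows made up 5, 7 and 9 of the falls and PIP1 rows 3, 3 and 2. TIP rows fell 7 times in the foliar nectary, once in the bracteal nectary and not in the circumbracteal nectary. Phloem rows fell in 3, 8 and 9 of 21 cases and rose in 1, 2 and 2 in the bracteal, circumbracteal and foliar nectaries, and pigment gland rows in 8, 11 and 14 of 22. Secondary-wall xylem rows fell in 13 of 33 cases in circumbracteal and 9 of 33 in foliar nectaries, while 1 rose in circumbracteal nectaries and none in foliar ones. Chlorophyll a-b binding rows fell in 1, 2 and 8 of 35 cases and rose in 0, 4 and 0, and the part of these tissues was not tested. The counts fell to 3 without bracteal pre-secretory replicate 3, to 6 without bracteal pre-secretory replicate 2, and to 9 without foliar pre-secretory replicate 1. With only the compared groups fitted, 3 of 10 bracteal, 4 of 24 circumbracteal and 16 of 22 foliar calls were kept.

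The 6 aquaporins that fell in all 3 extrafloral nectaries were PIP1-4 (XP_016669805.1), PIP1-3-like (XP_016716122.1), PIP2-1 (XP_016671298.1), the PIP2-8 rows XP_016714451.1 and XP_016691376.1, and aquaporin-like XP_016714450.1. The share of all rows that fell in all 3 was not counted, so the number 6 is a description. Aquaporin-like XP_016714450.1 had 0, 5.00 and 5.76 in post-secretory and 236 and 260.1 in pre-secretory bracteal nectaries. In circumbracteal nectaries it had 0, 6.20 and 10.5 post-secretory and 1342, 605 and 574 pre-secretory, and in foliar nectaries 52.8, 8.31 and 19.3 and 404 and 259.9. In each type the stages were well apart, with log2 changes of -6.18 ± 0.97 (adjusted p = 6.8e-05), -7.48 ± 0.87 (adjusted p = 5.1e-08) and -3.91 ± 0.97 (adjusted p = 0.0053), and the last was lost without pre-secretory replicate 1 (adjusted p = 0.12). PIP2-8 (XP_016691376.1) was listed at 0 in all 9 post-secretory extrafloral nectary samples, and its pre-secretory levels were 32.2 and 61.3 in bracteal, 71.0, 47.9 and 134 in circumbracteal, and 68.7 and 21.9 in foliar nectaries. Its adjusted p was 0.00017, 5.3e-07 and 9.6e-05. PIP1-4 (XP_016669805.1) had 132, 215 and 157 in post-secretory foliar nectaries, against 4483 and 3592 in pre-secretory ones (-4.60 ± 0.62, adjusted p = 2.5e-06), and these stages did not overlap. In bracteal and circumbracteal nectaries its falls of -2.23 ± 0.62 and -1.50 ± 0.55 (adjusted p of 0.026 and 0.045) were lost without 4 of 5 and any of 6 libraries (adjusted p up to 0.29 and 0.12). With only the compared groups fitted they were lost as well (adjusted p of 0.23 and 0.066), as was the bracteal fall of aquaporin-like XP_016714450.1 (adjusted p = 0.092), and of the 6 rows PIP2-8 (XP_016691376.1) was the 1 kept in all 3 types.

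Of the 11 TIP rows, 7 fell in the foliar nectary. TIP1-1 (XP_016680708.1) had 841, 1395 and 1085 in post-secretory foliar nectaries, against 11846 and 6848 in pre-secretory ones. The lowest early sample was over the highest late sample by a wide margin (-3.05 ± 0.44, adjusted p = 8e-06). TIP1-3-like (XP_016678856.1) fell to 5.87, 13.3 and 3.51, against 463 and 619 (-6.14 ± 1.15, adjusted p = 0.00026). In bracteal nectaries TIP1-1 (XP_016680708.1) had 11257, 7025 and 8399 post-secretory and 10017 and 7215 pre-secretory, and in circumbracteal nectaries 12607, 10714 and 9553 and 11106, 13689 and 5698, so that its stages overlapped in both types. TIP1-1-like (XP_016679105.1) moved the opposite way in the circumbracteal nectary, with 725, 2545 and 2793 after secretion against 53.9, 45.2 and 0 before it (6.99 ± 1.34, adjusted p = 0.00019). PIP2-2 (XP_016755870.1) rose there as well, to 499, 600.2 and 2388, against 118, 70.5 and 7.16 (4.45 ± 0.71, adjusted p = 1.3e-05). Neither of these rises had overlapping stages, but both were lost in the fit on the compared groups only (adjusted p of 0.13 and 0.16).

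Falls were frequent in adjacent tissue as well. There 1 aquaporin rose and 9 fell in bracteal (2.22% and 4.05% of all rows), 2 rose and 16 fell in circumbracteal (3.97% and 5.13%), and 7 rose and 16 fell in foliar tissue (5.16% and 9.25%). Of the 10 bracteal nectary falls and 9 adjacent falls, 8 were of the same rows, which is 8 of 10 and 8 of 9. For circumbracteal tissue 10 were shared of 16 and 16, and for foliar tissue 14 of 20 and 16. The share of all rows that fell in both tissues was not counted, so these overlaps are descriptions. Foliar adjacent tissue had PIP1-4 (XP_016669805.1) at 20.9, 48.3 and 7.44 post-secretory, against 2981 and 808 pre-secretory (-6.22 ± 0.62, adjusted p = 3.2e-09). TIP1-1 (XP_016680708.1) had 1866, 1549.5 and 1565 there, against 15823 and 7751 (-2.74 ± 0.44, adjusted p = 2.2e-05). Both rows were thus lower after secretion in nectary and adjacent foliar tissue alike. The bracteal adjacent count was 2 without pre-secretory replicate 3, the circumbracteal one 11 without pre-secretory replicate 3 and 10 without post-secretory replicate 3, and the foliar one 13 without pre-secretory replicate 1 and 15 without post-secretory replicate 3. When the compared groups alone were fitted, 3 of 10 bracteal, 3 of 18 circumbracteal and 16 of 23 foliar adjacent calls were kept.

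The test of the difference in the stage change between nectary and adjacent tissue called no aquaporin in bracteal or foliar tissue. All-row shares were 0.00412% and 0.00618% in bracteal and 0.0144% and 0.107% in foliar tissue for positive and negative differences, and 5 of 67 aquaporins had an unadjusted p under 0.05 in each. In circumbracteal tissue 2 were positive and 1 negative (0.573% and 0.466% of all rows). PIP2-2 (XP_016688651.1) was positive at 8.05 ± 1.60 (adjusted p = 0.0079) with the levels given above, and held without any single library but not in the fit on the compared groups only (adjusted p = 0.20). A TIP-type row (XP_016719752.1) was positive at 4.19 ± 1.01 (adjusted p = 0.029) although it was listed at 0 in all circumbracteal nectaries, since adjacent tissue had 18.8, 13.6 and 19.9 before secretion and 0 in every sample after it. SIP2-1 (XP_016720293.1) was negative, at -4.12 ± 1.08 (adjusted p = 0.049). Its post-secretory levels were 0, 0 and 34.5 in nectaries against 15.5, 44.1 and 31.0 in adjacent tissue, and its pre-secretory levels 38.0, 31.9 and 100.2 in nectaries against 26.7, 13.6 and 39.9. Both depended on single libraries, 5 and 8 of the 12, with adjusted p up to 0.059 and 0.14, and SIP2-1 was also lost in the fit on the compared groups only (adjusted p = 0.73). The count was 5 and 6 without nectary pre-secretory replicate 1 and 2, and 1 without adjacent pre-secretory replicate 3, nectary post-secretory replicate 2 or adjacent post-secretory replicate 2 or 3.

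**Figure D5:**
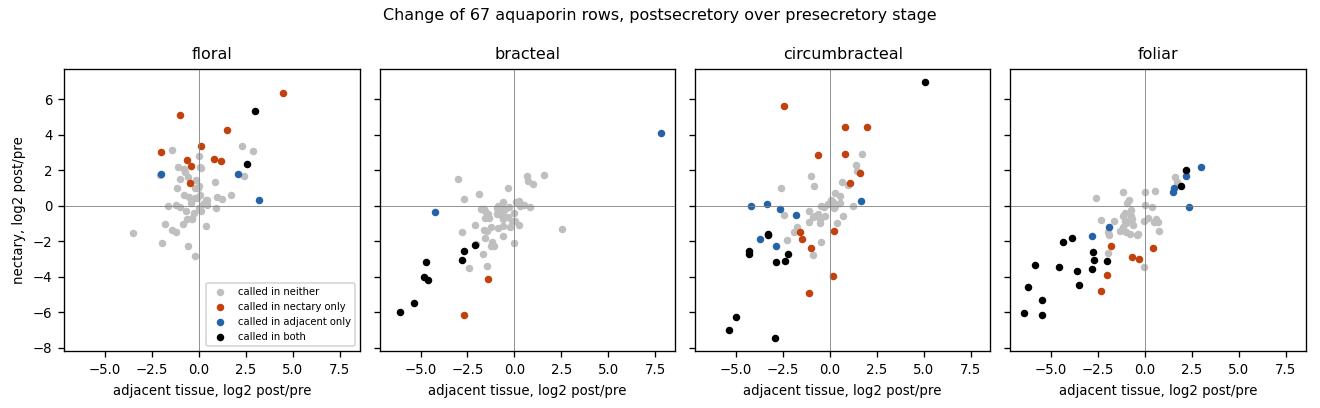
Log2 change of the 67 aquaporin rows from the pre-secretory to the post-secretory stage in the nectary (y axis) and in the adjacent tissue (x axis) for the 4 nectary types, coloured by the tissue in which the row was called. In foliar tissue 14 rows fell in both tissues, in circumbracteal tissue 10, in bracteal tissue 8 and in floral tissue 0.

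For the secretory foliar nectary there was 1 RNA sample per tissue, so its values have no replicate check. TIP1-1 (XP_016680708.1) had 10432 in the nectary and 15466 in adjacent tissue, which lies within the pre-secretory range of each tissue. The PIP-type 7a row XP_016722999.1 had 1007 in the nectary and 4045 in adjacent tissue, and XP_016733885.1, the PIP-type 7a row with the largest secretory level in floral nectaries, had 335 and 633. PIP1-4 (XP_016669805.1) had 1821 and 359, and PIP2-7-like (XP_016698608.1) 660.4 and 115. The PIP-type 7a sum was 2730 in the nectary and 6607 in adjacent tissue.

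Between nectary types, 44 of the 67 aquaporins were called in at least 1 of 6 pairs before secretion and 29 after it, where 30.7% and 35.2% of all tested rows were. In the fit on the compared groups only the first count was 22. The types differ in organ and age at each stage, and these cannot be told apart from nectary type here. The pre-secretory floral nectary was low in many of these aquaporins. It had none higher and 15 lower than the bracteal nectary (2.96% and 4.78% of all rows), 4 higher and 19 lower than the circumbracteal nectary (13.9% and 7.32%), and 1 higher and 27 lower than the foliar nectary (3.45% and 7.3%). PIP2 rows were 8, 9 and 10 of the lower calls. TIP1-1 (XP_016680708.1) had 1571 and 2116 in floral nectaries, 10017 and 7215 in bracteal, 11106, 13689 and 5698 in circumbracteal and 11846 and 6848 in foliar nectaries. The floral samples were the lowest, at -2.22 ± 0.48, -2.39 ± 0.44 and -2.30 ± 0.48 against the other 3 (adjusted p of 0.0023, 0.00015 and 0.00099). PIP2-7-like (XP_016698608.1) had 4.09 and 7.60 in floral nectaries, and its lowest extrafloral value was 192 in a bracteal one (-5.05 ± 0.62, -5.53 ± 0.56 and -6.18 ± 0.62, adjusted p of 5.5e-07, 7.6e-09 and 4.4e-09). The bracteal and foliar nectaries were not called apart in any aquaporin (0.453% and 0.878% of all rows, 11 of 67 at an unadjusted p under 0.05). In adjacent pre-secretory tissue the TIP sum averaged 9739 in floral, 13231 in bracteal, 17098 in circumbracteal and 22624 in foliar tissue, which was not tested.

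After secretion the floral nectary had 7 higher and 3 lower than the bracteal nectary (4.38% and 3.72% of all rows), 9 and 2 than the circumbracteal (9.44% and 4.41%), and 15 and 3 than the foliar one (6.78% and 5.5%). Post-secretory floral tissue came from just after flower opening, bracteal and circumbracteal tissue from 19 to 24 days after anthesis, and foliar tissue from mature leaves. Type, organ and age therefore cannot be told apart in these tests. PIP2-1 (XP_016671298.1) had 1176, 1909 and 331 in floral nectaries, against 37.2, 10.0 and 11.5 in bracteal, 10.3, 45.0 and 156 in circumbracteal and 10.1, 6.65 and 4.39 in foliar nectaries. The floral samples were highest (5.71 ± 0.80, 4.39 ± 0.80 and 6.88 ± 0.80, adjusted p of 3.8e-06, 0.00019 and 7.1e-08). The foliar nectary was lowest in TIP1-1 (XP_016680708.1), with 841, 1395 and 1085, below every sample of the other 3 types (adjusted p of 1.1e-07, 1.2e-06 and 1.9e-07 for floral, bracteal and circumbracteal against foliar), while those 3 were not called apart. NIP5-1 (XP_016695711.1) had 364, 459 and 442 in foliar nectaries, and was higher in floral (2.16 ± 0.44, adjusted p = 0.00059), bracteal (2.20 ± 0.44, adjusted p = 0.00074) and circumbracteal nectaries (1.78 ± 0.44, adjusted p = 0.0038). No aquaporin was called between bracteal and circumbracteal nectaries (0.94% and 0.0907% of all rows, 8 of 67 at an unadjusted p under 0.05). Adjacent tissues were not tested between types. After secretion their TIP sum averaged 5653 in foliar, 9553 in floral, 15331 in bracteal and 15359 in circumbracteal tissue. Their NIP sum averaged 973 in foliar, 700 in floral, 3683 in bracteal and 3278 in circumbracteal tissue. The part of the organ in the differences between nectaries was not tested.

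Transport proteins that work beside aquaporins were counted from lists chosen by description. In the floral nectary 3.69%, 3.07% and 1.78% of all rows were higher and 4.34%, 5.37% and 2.03% lower over the 3 stages. Of 17 boron transporter rows, which export borate in Arabidopsis, 4, 5 and 4 were higher and 0, 2 and 0 lower there. The median log2 change of the boron transporter rows was -0.51, -0.31 and 0.835, thus negative at the first 2 stages, while NIP5-1 was higher at all 3. Of 15 ammonium transporter rows, 1, 2 and 1 were higher and 2, 1 and 1 lower. Of 14 plasma membrane proton ATPase rows, which energise secondary transport, 4, 1 and 3 were higher and 0, 0 and 1 lower. Of 68 tonoplast proton pump rows, which acidify the vacuole, 0, 1 and 0 were higher and 2, 7 and 0 lower in the floral nectary. In the foliar nectary 3 tonoplast pump rows rose and 18 fell from the pre-secretory to the post-secretory stage, with a median log2 change of -0.96, beside the 7 TIP rows that fell there. Of all rows 3.72% rose and 8.64% fell over that interval.

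Among the members, the pair of rows most alike over the 51 samples was the NIP5-1 pair (Pearson r of 0.970 on the log2 scale). It was followed by PIP2-8 (XP_016725273.1) with PIP2-7-like (XP_016715640.1, r = 0.959), PIP2-2-like (XP_016669575.1) with PIP2-1 (XP_016671298.1, r = 0.954), PIP2-2 (XP_016738356.1) with PIP2-2-like (XP_016680902.1, r = 0.947), and the TIP2-1 rows (r = 0.929). The points share libraries and group structure, so these values describe likeness only.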

How the data were processed

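RNA of 51 samples of G. hirsutum TM-1 nectaries and adjacent tissue was sequenced in 2 runs each, giving 102 value columns, which were summed per RNA sample. The deposited signal values were made by the authors. Their methods describe mapping with BLASTN to the UTX-JGI cotton genome and upper-quartile scaling, but the rows of the table are NCBI proteins, and the counting and filters behind this table are not given in the sources used here. Values are whole numbers, yet in 8364 of 36212 rows with enough low values they are rounded multiples of a step (median 1.545); 96.9% of 239407 values of the second run fell on the step found in the first, against 61.3% by chance. They were therefore treated as length-scaled signal and not as raw reads, and no count model was used. A level near 10 rests on few reads. Correlation between the runs of a sample was at least 0.931 (median 0.969).

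Each sample was scaled by its upper quartile. A row entered the tests when 2 or more RNA samples reached a scaled value of 10, which held for 48534 of 49663. The log2(value + 1) was fitted with limma 3.58.1 (R 4.3.3; lmFit with 1 coefficient per group over all 51 samples, eBayes with a variance trend), adjusted by Benjamini-Hochberg over all tested rows, and called at an adjusted p under 0.05 and 1.5-fold (0.585 on the log2 scale). The procedure was run on simulated data in which a row had the same spread in every group. That run could not check the use of a shared spread where groups differ in spread. Python 3.11.15 with numpy 2.4.6, pandas 2.3.3 and matplotlib 3.10.9 made the summaries. Alternatives were median-of-ratios scaling, a pseudocount of 10, no filter, rows summed per gene, a fit on the compared groups only, the replicate number as a block, and leaving out each library. With 3 pairs, same-numbered samples correlated in their deviations from the group means in every pair (r of 0.244 to 0.658) in 4 nectary comparisons (floral secretory and post-secretory, bracteal and foliar post-secretory), and likewise (r of 0.168 to 0.408) between secretory and post-secretory floral samples of each tissue. There the numbers were taken to pair the samples. Same-numbered circumbracteal nectary and adjacent samples also had positive r, of 0.077 to 0.369, but the lowest were weak and they were not taken as paired.

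The rows and lists were chosen with earlier results of these data known. Named rows were the highest of each subfamily, up to 3 rises and 3 falls per comparison (called, no overlap, and a mean of 100 or more in the group where it was higher), and rows matched to Arabidopsis aquaporins that the study names (AT2G37170, AT2G45960, AT3G16240; none matched AT3G53420). Of these the text prints a part. PIP-type 7a XP_016722999.1, PIP2-2 XP_016688651.1, PIP2-8 XP_016725273.1 and XP_016691376.1, TIP1-1-like XP_016687447.1, the TIP-type, SIP2-1 and NIP2-1-like rows and the second NIP5-1 row lie outside this rule and were chosen after their values were seen. Gene names came from RefSeq, assembly Gossypium_hirsutum_v2.1, for 39 of the 67 rows by accession. The second sequencing set was not analysed here.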

Additional observations from a re-analysis of the deposited data

Results flagged for a closer look

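Differences between nectary and adjacent tissue in the change over stages, tested as such, drew attention in 8 aquaporins. From the pre-secretory to the secretory floral stage the difference was 4.40 ± 0.83 (SE, log2 scale, adjusted p = 0.012, limma) for PIP1-4 XP_016669805.1, lost without nectary pre-secretory replicate 1 or 2 or adjacent secretory replicate 1 (adjusted p of 0.056 to 0.086). It was 2.72 ± 0.51 for PIP-type 7a XP_016753761.1 (adjusted p = 0.012), lost without nectary pre-secretory replicate 1 (adjusted p = 0.29) or nectary secretory replicate 1 (adjusted p = 0.052). For PIP-type 7a XP_016733885.1 it was 5.65 ± 1.21 (adjusted p = 0.034), for PIP-type 7a XP_016716431.1 7.06 ± 1.39 (adjusted p = 0.015) and for TIP1-1-like XP_016687447.1 3.18 ± 0.66 (adjusted p = 0.025). These were lost without 8, 5 and 7 of the 11 libraries, with adjusted p up to 0.19, 0.18 and 0.30.

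From the pre-secretory to the post-secretory circumbracteal stage the difference was 8.05 ± 1.60 (adjusted p = 0.0079) for PIP2-2 XP_016688651.1, 4.19 ± 1.01 (adjusted p = 0.029) for the TIP-type row XP_016719752.1 and -4.12 ± 1.08 (adjusted p = 0.049) for SIP2-1 XP_016720293.1. Several of the groups behind these 3 values are listed at 0, so their size depends on the pseudocount of 1.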

How the results depend on the processing

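Of 246 calls of single aquaporins, 60 were kept under every alternative and none reversed. Without any single library 99 were kept and 147 were lost at least once. Median-of-ratios scaling kept 242, no filter 245, a pseudocount of 10 227 and the replicate block 226 of 245. A fit on the compared groups only kept 99. The cause of that loss was not tested.

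In the fit on the compared groups only, nectary against adjacent tissue gave 10 calls in floral post-secretory, 1 in bracteal post-secretory, 0 in circumbracteal pre-secretory, 0 in circumbracteal post-secretory, 0 in foliar pre-secretory and 1 in foliar post-secretory tissue. Stage changes of the nectary gave 4 (floral secretory against pre-secretory), 0 (post-secretory against secretory), 6 (post-secretory against pre-secretory), 3 in bracteal and 4 in circumbracteal nectaries. Adjacent tissue gave 2 (floral secretory against pre-secretory), 4 (bracteal) and 3 (circumbracteal). The difference of changes gave 1 in floral and 1 in circumbracteal tissue, and pre-secretory nectary types 22. A pseudocount of 10 gave 5 calls in circumbracteal post-secretory and 3 in foliar pre-secretory nectaries against adjacent tissue, and 2 in adjacent floral tissue (secretory against pre-secretory).

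With the replicate block the counts were 8 in bracteal post-secretory, 11 in circumbracteal pre-secretory and 7 in foliar post-secretory nectaries against adjacent tissue. They were 3 in adjacent floral tissue (secretory against pre-secretory), and for the difference of changes 11 and 1 in floral tissue (secretory against pre-secretory, post-secretory against secretory) and 5 in circumbracteal tissue. Outside the comparisons taken as paired, it was left undecided whether the replicate number pairs the samples. Same-numbered circumbracteal nectary and adjacent samples had r of 0.077 to 0.159 before secretion and 0.092 to 0.369 after it. Bracteal pre-secretory tissue had 2 pairs (r of 0.627), and floral pre-secretory tissue had 2 (r of -0.013 to 0.728). Where the samples were taken as paired, the block changed no other count by over 1.5 times. Of single calls it lost 1, PIP-type 7a XP_016733885.1 after secretion. It added 22: 6 in floral secretory, 6 in floral post-secretory, 4 in bracteal and 5 in foliar post-secretory nectaries against adjacent tissue, and 1 between floral nectary stages. No paired analysis was possible for foliar pre-secretory tissue, which shares 1 replicate number, and none was run between nectary types.

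Leaving out single libraries gave, for nectary against adjacent tissue, 9 to 18, 22 to 32 and 10 to 14 calls in floral tissue (pre-secretory, secretory, post-secretory), 0 and 2 to 4 in bracteal, 4 to 8 and 2 to 10 in circumbracteal, and 0 to 2 and 1 to 2 in foliar tissue. Nectary stages gave 8 to 16, 4 to 19 and 6 to 13 (floral), 3 to 10 (bracteal), 17 to 25 (circumbracteal) and 9 to 19 (foliar). Adjacent stages gave 0 to 1, 0 and 1 to 5 (floral), 2 to 11 (bracteal), 10 to 23 (circumbracteal) and 13 to 23 (foliar). Differences of changes gave 1 to 7 and 0 to 1 (floral), 0 (bracteal), 1 to 6 (circumbracteal) and 0 (foliar). Between nectary types the range was 31 to 45 before and 25 to 32 after secretion.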
